A study of Sus scrofa with 9 samples.

Results

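Genes of peroxisome proliferator-activated receptor (PPAR) signalling and fatty acid oxidation were compared in liver of Wujin pigs fed diets that differed in iron. The list holds 36 genes, chosen by symbol and role, with earlier results of these data known but with no measured value in the rule. All 36 were found, each on 1 row of the 25918 genes in the deposited table, and 35 of them had a mean of at least 0.5 FPKM (fragments per kilobase of transcript, scaled to the mapped fragments of each library) over the 9 libraries and were tested. PPARG was the only one below this level. The pigs were 35 days old at the start and were kept singly, and after 5 days of prefeeding they ate their diet for 30 days. The low-iron group received the basic diet with 0 mg/kg of added iron, the control group the same diet with 100 mg/kg, and the high-iron group with 200 mg/kg, the added iron being iron glycinate. Each group of the study had 6 pigs, of which 3 gave a library from whole liver, so a library is 1 animal. Males and females were both used, and the sex of each sequenced pig is not given in the sources used here. The basic diet itself contained iron, so the low-iron group was not free of it. Blood was drawn on an empty stomach before slaughter. Each library carries its group and the number of its pig.

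PPARs are nuclear receptors that bind fatty acids and their derivatives, pair with the retinoid X receptor and bind DNA at a direct repeat of the half-site AGGTCA with 1 base between (DR1). PPARA is the main form in hepatocytes and drives the genes that take fatty acids up, activate them, carry them into mitochondria as carnitine esters and shorten them by beta-oxidation. The electrons released pass through the electron transfer flavoprotein to the respiratory chain, and the acetyl-CoA can be turned into ketone bodies.

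None of the 35 tested genes differed between diets at an unadjusted p under 0.05 in limma, in any of the 3 comparisons. The groups overlapped for each of the 35 in each comparison. A gene was called where its fold change reached 2 with an unadjusted p under 0.05, and 0 of 35 were called in every comparison, where 0.882% of all 12584 tested genes were called between low iron and control, 1.57% between high iron and control and 1.54% between high iron and low iron. At an unadjusted p under 0.05 alone the shares over all tested genes were 3.68%, 5.59% and 7.15%, in the same order. Groups that did not overlap were found for 8.34%, 10.9% and 13.2% of all tested genes. The smallest limma p among the 35 genes was 0.0737 (adjusted p = 0.9998), for ECI1 between low iron and control. At a Benjamini-Hochberg adjusted p under 0.05, limma called 0, 1 and 0 of the 12584 genes in the 3 comparisons, and 463, 704 and 900 had an unadjusted p under 0.05.

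The liver identity of the samples was checked on 10 hepatocyte markers, which matched 11 genes, all of them tested. Their summed level ranged from 75451 to 85761 FPKM in the low-iron group, between 77232 and 97402 FPKM in control pigs and between 73246 and 87029 FPKM in high-iron pigs. Libraries summed to 416922 to 456420 FPKM, and between 16235 and 17817 genes were above 0. The deposited table holds FPKM and no read counts, so the number of reads under each value is not known from it, although the study lists the mapped reads of each library. In whole liver, fewer cells of a type and less RNA per cell cannot be told apart.

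Most of these genes were abundant transcripts, 32 of the 36 with a mean above 10 FPKM and 15 above 100 FPKM, and 26 were among the 1000 genes of highest mean level. ACSL1, which activates long-chain fatty acids, had the highest mean of the list at 548 FPKM. FABP1, the fatty acid binding protein of liver cytosol, followed at 415 FPKM, and ACAA2, the mitochondrial thiolase, at 376 FPKM. PPARG, the form known from fat cells, and CD36, a fatty acid translocase of the plasma membrane, were the lowest.

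**Figure D1:**
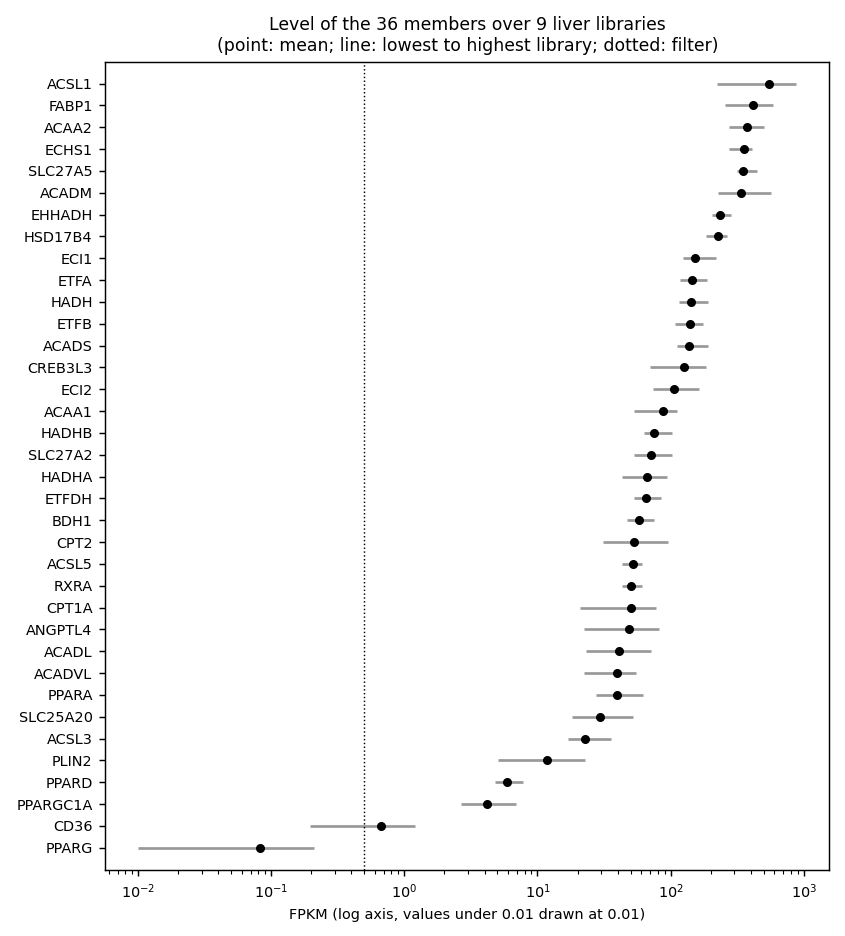
Mean FPKM of the 36 genes over 9 libraries (points, log axis) with the lowest and the highest library (lines), in order of the mean. PPARG alone lies under the dotted filter at 0.5 FPKM, and ACSL1 has the highest mean at 548 FPKM.

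Among the receptors, PPARA (chromosome 5, 3302755 to 3321091 of Sscrofa11.1) measured 32.3, 52.8 and 35.5 FPKM in low-iron animals 2, 3 and 7. It measured 48.3, 28.7 and 27.7 FPKM in control animals 4, 5 and 6. In high-iron animals 2, 7 and 8 it measured 41.4, 27.8 and 61.8 FPKM. Control animal 6 was lowest and high-iron animal 8 highest, and the ranges of the 3 groups overlapped. On the scale of log2(FPKM + 0.1), used for all fold changes here, PPARA differed from control by 0.22 with low iron (standard error 0.32, 95% interval -0.50 to 0.94) and 0.29 with high iron (standard error 0.32, interval -0.42 to 1.01), with limma adjusted p-values of 0.9998 and 0.990.

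The other receptors were lower or steadier. RXRA, the retinoid X receptor that pairs with the PPARs, averaged 51.4 ± 8.61 FPKM with low iron, 48.97 ± 4.65 FPKM in controls and 51.3 ± 7.29 FPKM with high iron (SD, n = 3). Its log2 fold changes against control were 0.06 with low iron (interval -0.35 to 0.48) and 0.06 with high iron (interval -0.35 to 0.47). PPARD, the widely expressed form, had means of 6.19 ± 0.960, 5.97 ± 1.58 and 5.46 ± 0.307 FPKM (SD, 3 pigs each) with low iron, control and high iron.

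PPARG did not pass the filter. It measured 0.206, 0.0243 and 0 FPKM in low-iron animals 2, 3 and 7, and 0, 0 and 0.0276 FPKM in control animals 4, 5 and 6. The high-iron animals 2, 7 and 8 had 0.178, 0.208 and 0.103 FPKM, each above every control animal (exact permutation test of 3 against 3, two-sided p = 0.1, the smallest possible). Values this near 0 rest on few reads, and no fold change is given. Of 6 adipocyte markers, ADIPOQ and LEP are listed at 0 in all 9 libraries. The summed level of the 6 was 29.99 to 38.5 FPKM in the low-iron group, 23.2 to 32.8 FPKM in the control group and 33.0 to 43.1 FPKM in the high-iron group, of which CFD alone took 15.9 to 35.4 FPKM per library. CFD, which encodes complement factor D, had a log2 fold change of 0.63 between high iron and control (standard error 0.22, limma unadjusted p = 0.0174, adjusted p = 0.885). Markers of Kupffer cells and macrophages were also higher in that comparison. Of 10, 7 were higher at an unadjusted p under 0.05 in limma, where 5.59% of all tested genes passed in either direction. Their summed level was 1091 to 1330 FPKM in the high-iron group, against 825 to 1075 FPKM in the control group. Their part in the PPARG values was not tested.

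Of the co-regulators, PPARGC1A (chromosome 8, 17841844 to 18527953) encodes PGC-1alpha, a co-activator of PPARA. It measured 4.70, 3.26 and 3.52 FPKM in low-iron animals 2, 3 and 7, 4.10, 6.87 and 2.66 FPKM in control animals 4, 5 and 6, and 3.82, 4.04 and 4.31 FPKM in high-iron animals 2, 7 and 8. The highest and the lowest of the 9 values were both from control animals. CREB3L3 (chromosome 2, 74578471 to 74588269) encodes CREB-H, a liver transcription factor of the endoplasmic reticulum that acts together with PPARA. It measured 95.3, 145 and 147 FPKM in low-iron animals 2, 3 and 7, 123, 69.6 and 125 FPKM in control animals 4, 5 and 6, and 117, 122 and 184 FPKM in high-iron animals 2, 7 and 8. Control animal 5 had the lowest and high-iron animal 8 the highest level, and the other 7 lay between them. Between high iron and control, CREB3L3 had the smallest p of the list. Its log2 fold change there was 0.43 (standard error 0.29, interval -0.21 to 1.07, limma unadjusted p = 0.165, adjusted p = 0.932).

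The 300 bases before the annotated start of each of the 36 genes were read from Sscrofa11.1 and searched on both strands for the DR1 repeat. None held it with at most 1 mismatch in its fixed bases, which 0.271% of 20649 promoters of the table's genes did. With at most 2 mismatches 1 of 36 held it (2.78%), against 3.36% of all promoters, and with at most 3 mismatches 8 of 36 (22.2%), against 23.6%. The share among these genes was thus near that of all promoters, and a match in these letters is a description and not a site. The promoter with the closest match is that of CREB3L3 (chr2:74588270-74588569, minus strand, 2 mismatches), and among the 7 with 3 mismatches that of FABP1 (chr3:57850211-57850510, plus strand) holds its match nearest to the gene start. Both are shown 5′ to 3′ on the strand of the gene, with the match in capitals. The match of FABP1 is on the opposite strand.
CREB3L3: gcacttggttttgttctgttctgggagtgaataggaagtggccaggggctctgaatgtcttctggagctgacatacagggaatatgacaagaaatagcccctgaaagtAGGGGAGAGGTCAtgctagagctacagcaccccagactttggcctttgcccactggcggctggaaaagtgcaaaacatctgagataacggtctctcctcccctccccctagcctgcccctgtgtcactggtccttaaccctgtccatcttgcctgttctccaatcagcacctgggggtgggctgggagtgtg
FABP1: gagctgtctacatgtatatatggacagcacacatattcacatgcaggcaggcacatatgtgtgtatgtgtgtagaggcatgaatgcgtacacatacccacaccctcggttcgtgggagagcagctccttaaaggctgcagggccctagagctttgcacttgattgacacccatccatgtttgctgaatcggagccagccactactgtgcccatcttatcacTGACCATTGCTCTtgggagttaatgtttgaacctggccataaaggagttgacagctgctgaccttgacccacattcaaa

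The 7 genes of uptake, binding and activation differed widely in how much they varied between animals. FABP1 (chromosome 3, 57850511 to 57854966) measured 444, 370.3 and 509.9 FPKM in low-iron animals 2, 3 and 7, 256, 519 and 398 FPKM in control animals 4, 5 and 6, and 338, 592 and 311 FPKM in high-iron animals 2, 7 and 8. Its log2 fold change against control was 0.22 with low iron (interval -0.47 to 0.92) and 0.08 with high iron (interval -0.62 to 0.77). ACSL1 (chromosome 15, 45866858 to 45936327) measured 223, 814 and 776 FPKM in low-iron animals 2, 3 and 7. In control animals 4, 5 and 6 it measured 366, 252 and 882 FPKM, and in high-iron animals 2, 7 and 8 it measured 402, 580.1 and 633 FPKM. The highest library had 3.95 times the level of the lowest, and both ends lay in the low-iron and control groups, which each held 1 or 2 animals far below the others. The 95% interval of the ACSL1 difference accordingly ran from -0.93 to 1.46 (log2) between low iron and control. SLC27A5, the bile acid and fatty acid CoA ligase, was among the steadiest, at 367 ± 70.4 FPKM with low iron, 349 ± 26.5 FPKM in controls and 331 ± 4.07 FPKM with high iron (SD, n = 3).

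SLC27A2, a very long-chain acyl-CoA synthetase and transporter, ranged from 53.3 to 102 FPKM over the 9 libraries. ACSL3 and ACSL5, the other acyl-CoA synthetases of the list, ranged from 16.9 to 35.4 FPKM and from 43.0 to 61.3 FPKM. ACSL3 had the lowest log2 fold change of the list between low iron and control, -0.31 (standard error 0.27, interval -0.91 to 0.29, limma adjusted p = 0.9998). CD36 ranged from 0.195 to 1.21 FPKM, with the lowest value in control animal 5 and the highest in high-iron animal 7.

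The carnitine shuttle moves long-chain fatty acids across the inner mitochondrial membrane. CPT1A (chromosome 2, 4250642 to 4293914), its rate-limiting outer enzyme, measured 46.5, 70.3 and 77.9 FPKM in low-iron animals 2, 3 and 7. It measured 27.2, 46.2 and 50.6 FPKM in control animals 4, 5 and 6, and 62.9, 20.7 and 52.4 FPKM in high-iron animals 2, 7 and 8. All low-iron animals but animal 2 were above every control animal. The log2 fold change between low iron and control was 0.66 (standard error 0.40, interval -0.23 to 1.55, limma unadjusted p = 0.129, adjusted p = 0.9998; exact permutation test, two-sided p = 0.2). Between high iron and low iron it was -0.63 (standard error 0.40, interval -1.52 to 0.26, limma adjusted p = 0.799). CPT2, the inner enzyme, and SLC25A20, the carnitine carrier, had log2 fold changes of 0.23 (interval -0.64 to 1.11) and 0.05 (interval -0.77 to 0.87) between low iron and control. CPT2 was highest in low-iron animal 7 (96.1 FPKM) and control animal 5 (86.9 FPKM), where no other animal passed 50.7 FPKM. SLC25A20 was highest in high-iron animal 8 (52.4 FPKM) and low-iron animal 7 (42.5 FPKM).

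The 11 genes of mitochondrial beta-oxidation encode the acyl-CoA dehydrogenases, the hydratase, the isomerases, the hydroxyacyl-CoA dehydrogenases and the thiolase. Between low iron and control 9 of the 11 had a log2 fold change above 0, with values from -0.12 (ACADL) to 0.41 (ECI1) and a median of 0.20. ECI1 (chromosome 3, 39750742 to 39758516), an isomerase needed for unsaturated fatty acids, measured 181, 143 and 219.7 FPKM in low-iron animals 2, 3 and 7. It measured 135, 123 and 147 FPKM in control animals 4, 5 and 6, and 126, 167 and 138 FPKM in high-iron animals 2, 7 and 8. Low-iron animal 3 lay within the control range and the other low-iron animals above it (log2 fold change 0.41, standard error 0.20, interval -0.05 to 0.86, limma unadjusted p = 0.0737, adjusted p = 0.9998).

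ECI2, a related isomerase of mitochondria and peroxisomes, had a log2 fold change of 0.36 between low iron and control (interval -0.20 to 0.91) and of -0.42 between high iron and low iron (interval -0.97 to 0.14). ACADS, the short-chain dehydrogenase, averaged 155 ± 32.4 FPKM with low iron against 126 ± 11.2 FPKM in controls (SD, n = 3), a log2 fold change of 0.28 (interval -0.15 to 0.72). ECHS1, the short-chain hydratase, differed by 0.20 (interval -0.24 to 0.65) and HADHB, the thiolase subunit of the trifunctional protein, by 0.26 (interval -0.19 to 0.70). HADHA, the partner of HADHB in the trifunctional protein, had its largest log2 fold change between high iron and control, 0.33 (interval -0.26 to 0.93). HADH, the short-chain hydroxyacyl-CoA dehydrogenase, and ACADVL, the very long-chain dehydrogenase, had log2 fold changes of -0.15 (interval -0.60 to 0.30) and 0.25 (interval -0.42 to 0.93) in the same comparison.

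ACADM (chromosome 6, 137541481 to 137575544), the medium-chain dehydrogenase, measured 336, 225 and 573 FPKM in low-iron animals 2, 3 and 7, 312, 374 and 246 FPKM in control animals 4, 5 and 6, and 259, 256 and 467 FPKM in high-iron animals 2, 7 and 8. ACADL, the long-chain dehydrogenase, measured 29.3, 23.2 and 70.9 FPKM, 38.8, 48.6 and 32.8 FPKM, and 29.1, 30.5 and 66.1 FPKM in the same animals. Both genes were lowest in low-iron animal 3 and highest in low-iron animal 7, so the extremes of the whole experiment fell within one diet. For ACADL, 0.947% of the variance of log2 levels over the 9 libraries lay between the groups, the smallest share of the 35 genes.

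**Figure D2:**
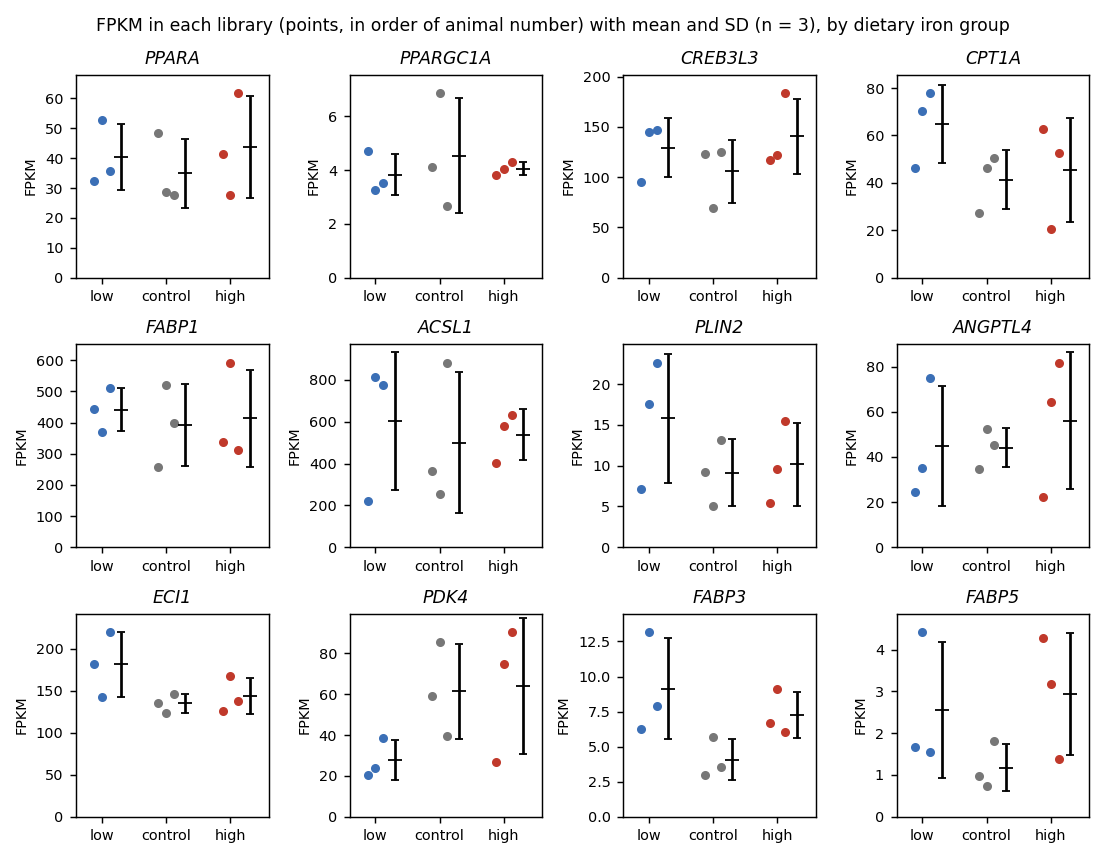
FPKM in each library (points, in order of animal number within a group) with the mean and SD (n = 3) for 12 genes, by dietary iron group. ACSL1 spans 223 to 882 FPKM within the low-iron and control groups, and PDK4 is the only gene shown whose low-iron values all lie below the control values.

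The electron transfer flavoprotein genes ETFA, ETFB and ETFDH had log2 fold changes of 0.13, 0.25 and 0.13 between low iron and control, and of -0.09, 0.03 and 0.16 between high iron and control. The limma adjusted p-values of these lay between 0.994 and 0.9998. The genes of peroxisomal beta-oxidation, EHHADH, HSD17B4 and ACAA1, had log2 fold changes of -0.03, 0.14 and 0.25 between low iron and control. EHHADH was the least variable of the 36 in ratio of highest to lowest library (1.39). BDH1, which turns acetoacetate into beta-hydroxybutyrate, measured 61.1 ± 13.1 FPKM with low iron, 61.1 ± 6.23 FPKM in controls and 51.7 ± 8.07 FPKM with high iron (SD, n = 3).

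PLIN2 (chromosome 1, 203683867 to 203709277) coats lipid droplets and is a common readout of fatty acid load. It measured 7.16, 17.6 and 22.6 FPKM in low-iron animals 2, 3 and 7, 9.25, 5.04 and 13.2 FPKM in control animals 4, 5 and 6, and 5.43, 9.55 and 15.5 FPKM in high-iron animals 2, 7 and 8. The log2 fold change between low iron and control was 0.73, the largest of the list (standard error 0.50, interval -0.37 to 1.83, limma unadjusted p = 0.171, adjusted p = 0.9998; exact permutation test, two-sided p = 0.3). Without low-iron animal 2 it was 1.22 (limma unadjusted p = 0.0266, adjusted p = 0.99998), and PLIN2 was then called. At that setting 138 of all 12584 tested genes were called higher and 48 lower. ANGPTL4 (chromosome 2, 70905767 to 70912892) encodes a secreted inhibitor of lipoprotein lipase. It measured 24.6, 34.98 and 75.2 FPKM in low-iron animals 2, 3 and 7, 34.9, 52.3 and 45.4 FPKM in control animals 4, 5 and 6, and 22.4, 64.3 and 81.9 FPKM in high-iron animals 2, 7 and 8. The low-iron and high-iron groups each spanned the whole control range, and the log2 fold changes against control were -0.12 (interval -1.21 to 0.97) and 0.17 (interval -0.92 to 1.26).

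**Figure D3:**
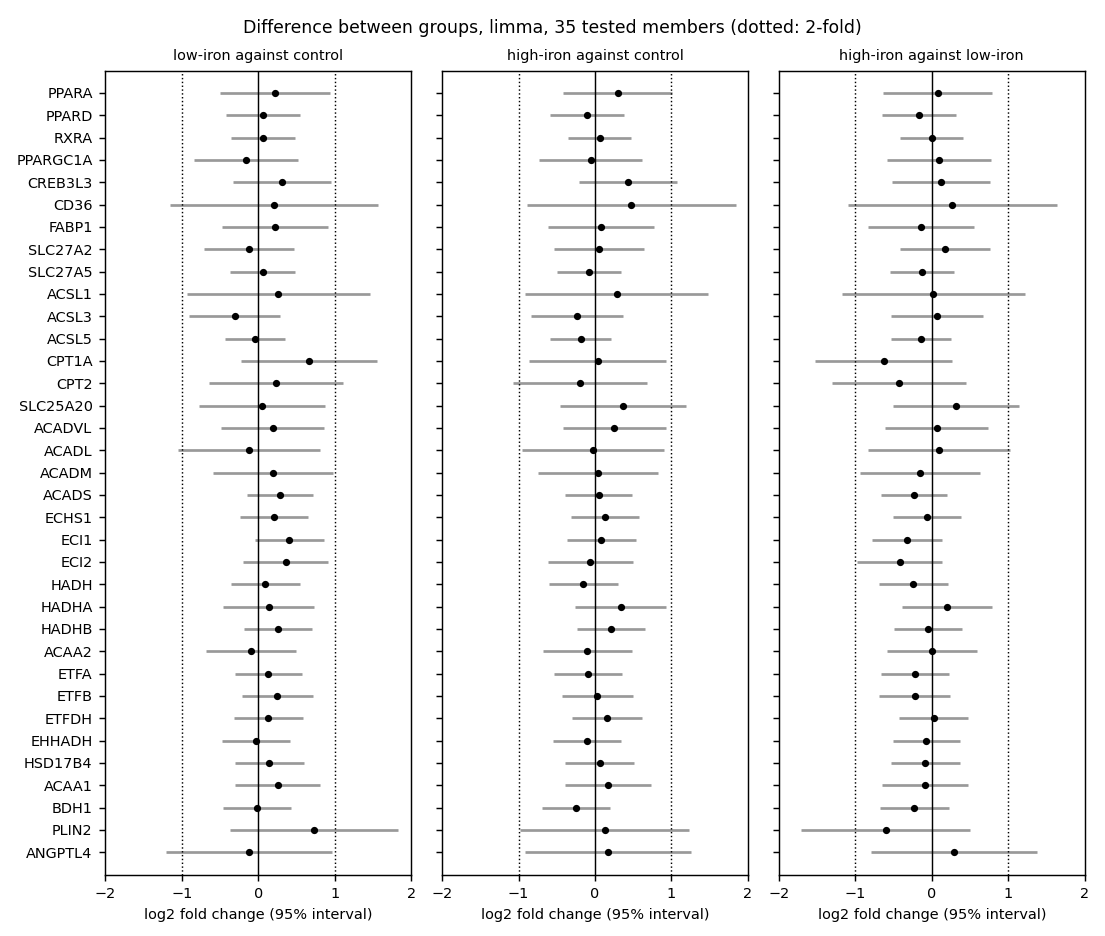
Log2 fold change with its 95% interval (limma) of the 35 tested genes in each of the 3 comparisons, ordered by role, with dotted lines at a 2-fold difference either way. Every interval crosses 0, and 28, 27 and 27 of the 35 lie between the dotted lines.

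The precision of these comparisons differed by gene. The 95% interval lay within a 2-fold difference in both directions for 28 of the 35 genes between low iron and control, for 27 between high iron and control and for 27 between high iron and low iron. The median half-width of the interval was 0.59 on the log2 scale (0.61 over all tested genes). The interval reached past 2-fold in at least 1 comparison for CD36, ACSL1, PLIN2, ANGPTL4 and CPT1A, among others.

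As a description of the list, the median log2 fold change between low iron and control was 0.14, with 26 of 35 above 0 (74.3%), against 0.08 and 62.7% over the 12584 genes. Between high iron and control the median was 0.05, with 22 of 35 above 0 (62.9%), against 0.10 and 65.0% over all tested genes. Between high iron and low iron it was -0.07, with 13 of 35 above 0 (37.1%), against 0.03 and 53.6%. These shares depended on the scaling. With median-of-ratios scaling 22, 12 and 11 of 35 were above 0 (62.9%, 34.3% and 31.4%), and with quantile normalization 24, 23 and 18 of 35 (68.6%, 65.7% and 51.4%). Median-of-ratios scaling moved the median of all tested genes between high iron and control from 0.10 to -0.03, and that of the list from 0.05 to -0.07.

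The variance of log2 levels was split into a part between and a part within the groups. With 3 groups of 3 libraries most of it is expected within the groups even without any effect of diet. The shares are thus descriptions and do not measure diet against differences between animals. The median share of the variance of log2 levels that lay between the groups was 11.6% for the 35 genes and 20.5% for all tested genes. The median SD of log2 levels within a group was 0.34 for both, and 0.28 for the 3850 genes with a mean of at least 10 FPKM. The highest library had over 2 times the level of the lowest for 18 of the 35 genes and over 3 times for 7.

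**Figure D4:**
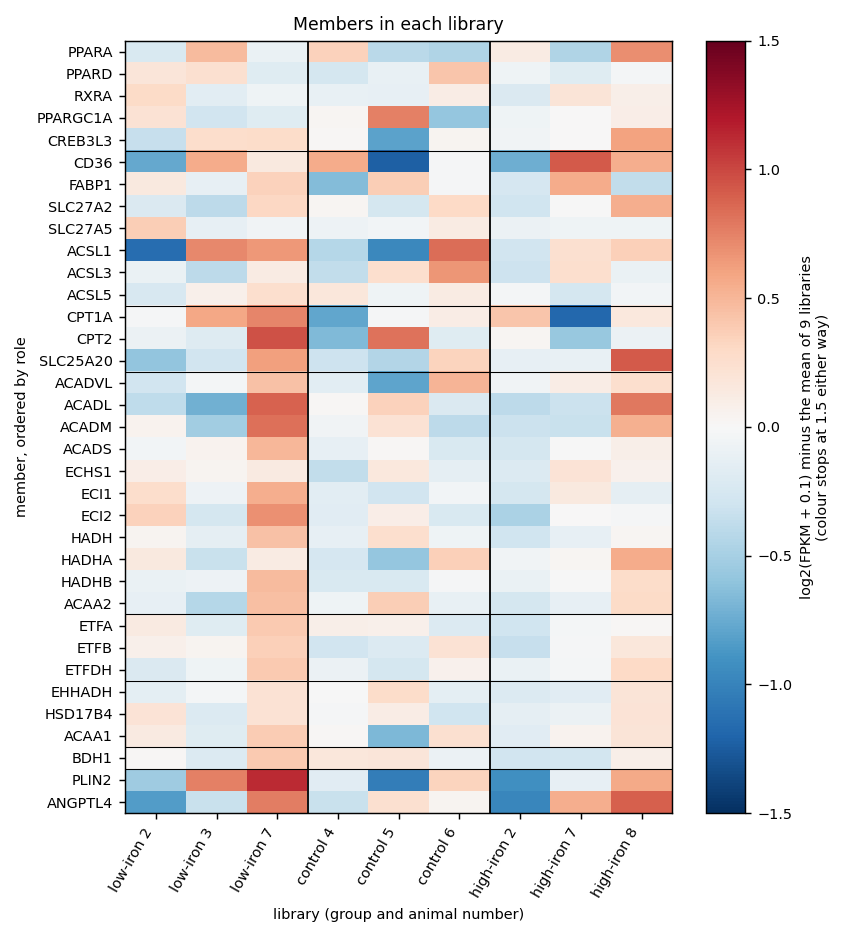
Log2(FPKM + 0.1) of the 35 tested genes minus the mean over the 9 libraries, with 1 column per library and 1 row per gene in order of role. The column of low-iron animal 7 is above the mean for all 20 oxidation enzymes and that of high-iron animal 2 for 2 of them.

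A set of 20 enzymes covers the carnitine shuttle, mitochondrial and peroxisomal beta-oxidation and the electron transfer flavoprotein. In some animals most of the 20 lay on the same side of their own mean, and in others they did not. In low-iron animal 7 all 20 were above their own mean over the 9 libraries, 15 of them were at their highest, and the median difference from that mean was 0.45 on the log2 scale. High-iron animal 8 followed, with 17 of 20 above the mean and a median of 0.20. High-iron animal 2 was lowest, with 2 of 20 above the mean and a median of -0.20, and low-iron animal 3 had 4 of 20 and -0.16. Control animal 5 was mixed, with 11 of 20 above their mean and 6 of 20 at their lowest. The median difference over all tested genes was 0.08 in low-iron animal 7, 0.11 in high-iron animal 8, -0.06 in high-iron animal 2 and 0.05 in low-iron animal 3. Animals of 1 diet were thus found at both ends.

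The difference of these enzymes between low iron and control was smaller without low-iron animal 7. With all libraries 17 of 20 were above 0, with a median log2 fold change of 0.19, and without this animal 10 of 20, with a median of 0.03. Between high iron and low iron 5 of 20 were above 0 with all libraries (median -0.08). The count was 10 without low-iron animal 7 (median 0.01) and 9 without high-iron animal 2 (median -0.009). Without high-iron animal 8 it was 1 (median -0.24). Low-iron animal 7 also had the highest summed level of 7 erythroid markers, 2457 FPKM against 212 to 1452 FPKM in the other libraries, of which HBB made up 2433 FPKM. Its hepatocyte markers summed to 80402 FPKM, within the range of the other libraries. The part of blood RNA in the values of this animal was not tested.

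**Figure D5:**
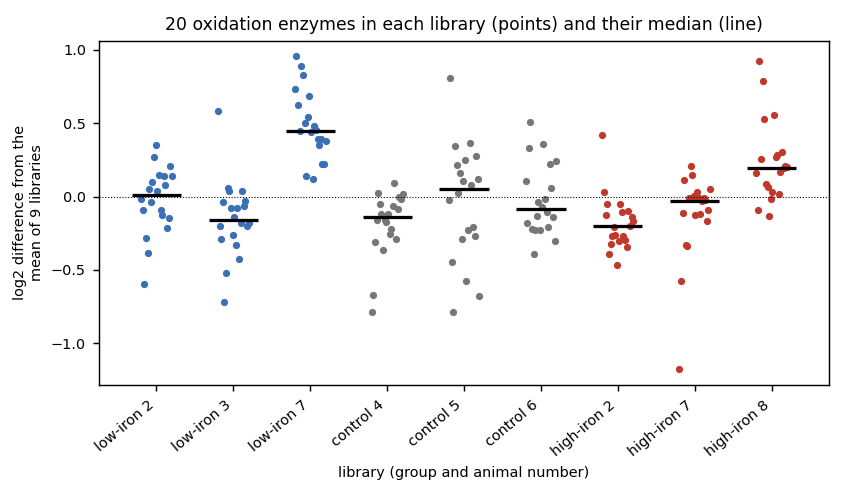
Log2 difference of each of 20 oxidation enzymes (points) from its own mean over the 9 libraries, with the median (line) in each library. The median of low-iron animal 7 is 0.45 and that of high-iron animal 2 is -0.20.

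Over all pairs of the 20 enzymes, the median Pearson's r across the 9 libraries was 0.47, and 22.1% of the 190 pairs were above 0.7, where all pairs of the tested genes had a median of 0.08 and 3.53% above 0.7. On deviations from the group means the median of the 20 enzymes was 0.50. Pearson's r of each enzyme with the mean of the other enzymes ran from 0.35 (CPT1A) to 0.91 (HADHB). These are descriptions over the same 9 libraries and were not tested. Low-iron animal 7, where all 20 enzymes were above their mean and 15 at their highest, was not left out of them. The pairs of all tested genes were not matched to the enzymes in level. The regulators were set against the mean log2 level of the 20 enzymes over the 9 libraries, in 4 relations. Pearson's r was 0.07 for PPARA (exact permutation p = 0.870, adjusted p = 0.870) with a Spearman's rho of -0.18 (exact permutation p = 0.644, adjusted p = 0.858). For PPARGC1A, r was -0.06 (exact permutation p = 0.866, adjusted p = 0.870) and rho -0.03 (exact permutation p = 0.948, adjusted p = 0.948). For CREB3L3, r was 0.40 (exact permutation p = 0.280, adjusted p = 0.870) and rho 0.43 (exact permutation p = 0.250, adjusted p = 0.4998). For RXRA, r was 0.15 (exact permutation p = 0.697, adjusted p = 0.870) and rho 0.50 (exact permutation p = 0.178, adjusted p = 0.4998). All tests were two-sided. When the 2 libraries with the most extreme level of the regulator were left out, r was -0.14, -0.07, 0.39 and 0.47 in the same order, and on deviations from the group means 0.003, 0.01, 0.37 and 0.11.

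The wider pathway was read from 3 further lists. Of 29 other tested targets of PPARs, FABP3, PDK4 and FABP5 were called in at least 1 comparison. Between low iron and control 2 of the 29 were called, 1 higher and 1 lower, where 0.882% of all tested genes were called. Their median log2 fold change was 0.30, with 24 of 29 above 0, beside 0.08 and 62.7% over all tested genes. Between high iron and control 1 of 29 was called higher, beside 1.57% of all tested genes, and the median was 0.26 (0.10 over all tested genes). In the comparison of high iron with low iron 1 of 29 was called higher, beside 1.54%, and the median was -0.05 (0.03 over all tested genes). Of 28 other tested enzymes of fatty acid oxidation and ketone metabolism, and of 17 tested partners and co-regulators of PPARs, 0 were called in any comparison. At an unadjusted p under 0.05 in limma, 1 of the 28 was higher between low iron and control, 1 between high iron and control and 0 between high iron and low iron. Of the 17, 1 was higher and 2 were lower between high iron and low iron, and 0 passed in the other comparisons. Over all tested genes the shares at this threshold were 3.68% between low iron and control, 5.59% between high iron and control and 7.15% between high iron and low iron. For the 28 enzymes, 1 gene is thus near the background. The 1 higher and 2 lower of the 17 together make a larger share than the 7.15%, in a short list, and this was not tested.

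PDK4 (chromosome 9, 75246956 to 75260134) encodes a kinase that switches off pyruvate dehydrogenase and so spares glucose when fatty acids are burned. It measured 20.2, 23.9 and 38.8 FPKM in low-iron animals 2, 3 and 7, and 59.3, 85.5 and 39.5 FPKM in control animals 4, 5 and 6. In high-iron animals 2, 7 and 8 it measured 26.6, 74.8 and 90.5 FPKM. Every low-iron animal was below every control animal, the closest at 38.8 against 39.5 FPKM. The log2 fold change was -1.13 between low iron and control (standard error 0.45, limma unadjusted p = 0.0292, adjusted p = 0.9998), the exact permutation p being 0.1, which 3 against 3 cannot go below, and 1.09 between high iron and low iron (standard error 0.45, limma unadjusted p = 0.0353, adjusted p = 0.678). Each of the calls was lost in the absence of any of 4 libraries, with log2 fold changes down to -0.86 without control animal 5 and 0.75 without high-iron animal 8.

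FABP3 (chromosome 6, 87943003 to 87950708), the fatty acid binding protein known from heart and muscle, measured 6.28, 13.2 and 7.89 FPKM in low-iron animals 2, 3 and 7, and 2.96, 5.70 and 3.53 FPKM in control animals 4, 5 and 6. In high-iron animals 2, 7 and 8 it measured 6.69, 9.10 and 6.01 FPKM, and every animal of both other diets was above every control animal. The log2 fold change was 1.13 with low iron (standard error 0.32, limma unadjusted p = 0.00486, adjusted p = 0.9998) and 0.85 with high iron (standard error 0.32, limma unadjusted p = 0.0219, adjusted p = 0.892), and both comparisons share the control animals. The call with low iron was lost at a pseudocount of 1 (0.98), without low-iron animal 3 (0.83) and without control animal 4 (0.94).

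FABP5 (chromosome 4, 55277831 to 55282585), the epidermal fatty acid binding protein, was a low transcript, at 1.68, 4.42 and 1.56 FPKM in low-iron animals 2, 3 and 7, 0.979, 0.746 and 1.81 FPKM in control animals 4, 5 and 6, and 4.28, 3.17 and 1.38 FPKM in high-iron animals 2, 7 and 8. The high-iron and control groups overlapped, and the log2 fold change between them was 1.20 (standard error 0.50, limma unadjusted p = 0.0368, adjusted p = 0.892). The call was lost with median-of-ratios scaling (1.08) and quantile normalization (1.003), among 9 of 16 other settings. Between low iron and control the log2 fold change of FABP5 was 0.98 (standard error 0.50, limma unadjusted p = 0.0783, adjusted p = 0.9998). FABP5 is also expressed by macrophages. Markers of Kupffer cells and macrophages were higher between high iron and control, as given above for PPARG. Between low iron and control 0 of these 10 markers had an unadjusted p under 0.05 in limma. The part of macrophages in the FABP5 values was not tested.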

How the data were processed

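Liver RNA of 9 pigs was sequenced from poly(A)-selected libraries. The authors cleaned the reads of adapter and poor sequence, aligned them with Hisat2 2.0.1 to Sscrofa11.1, assembled with StringTie and deposited FPKM, with no further scaling between libraries stated. Numbered rows were matched to the gene lines of NCBI's annotation (release 106) in order. All 20660 numbered rows then fell on protein-coding genes, against 15031 when shifted by 1. The other 5258 are new genes without a name.

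Groups come from the labels. The log2 of FPKM plus 0.1 was fitted for 12584 genes, those whose mean FPKM reached 0.5, with limma 3.58.1 in R 4.3.3, as a single fit of the 3 groups with empirical Bayes moderation and a trend. Fold changes are on this scale and understate changes of low genes. Calls follow the study (2-fold or more, unadjusted p under 0.05). Adjusted p-values are Benjamini-Hochberg over all tested genes. The limma p-values set a difference of means against the spread between pigs within groups, pooled over the 3 groups and moderated over all tested genes. The number of 3 pigs per group limits the precision. No count model was used, although the study used one, because the file holds no counts. The procedure was tested on simulated data. Exact permutation tests were run in Python 3.11.15.

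The genes, the further lists and the tests were chosen with earlier results of these data known. Per-library values are given, by a rule, for PPARA, PPARGC1A, CREB3L3, CPT1A, FABP1, PLIN2, ANGPTL4, members past an unadjusted p under 0.05 or without overlap and with a log2 difference of at least 0.5, and for called genes of the further lists. Those of PPARG, ACSL1, ACADM, ACADL and ECI1, and the groups' marker values, were added after the values were seen, as was the search of promoters with up to 3 mismatches and the choice of FABP1 there. Levels of immune, endothelial, stellate and bile duct markers are in the closing section. Same-numbered low-iron and high-iron animals are different pigs, and their deviations from the group means correlated at 0.02 for both pairs. The consensus correlation of a block on the number was 0.20. With that block 1168 genes had an unadjusted limma p under 0.05 between high iron and low iron, against 900 without it.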

Additional observations from a re-analysis of the deposited data

How the results depend on the processing

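Alternatives were pseudocounts of 1 and 0.01, no filter, a mean FPKM of at least 1, quantile normalization, scaling by median of ratios or to TPM, fits without the third group, array quality weights, a random block on the pig's number, and each library left out. The count of called genes of the list stayed at 0 in all of them except for the following. Without the filter 1 of 36 was called between high iron and control (PPARG, from values near 0). At that setting 404 of all 20703 genes were called higher and 100 lower. With each library left out it was 0 to 1 between low iron and control and 0 to 1 between high iron and low iron, the single gene being PLIN2 without low-iron replicate 2 in both. Without that replicate, 138 of all 12584 tested genes were called higher and 48 lower between low iron and control. Between high iron and low iron 109 were called higher and 98 lower. With the replicate block, which rests on numbers that pair no animals, 0 were called in each comparison, and the list's median log2 fold change was 0.16 between low iron and control. The medians moved by less than the spread between libraries (SD 0.205) in every alternative. In the main fit they were 0.14, 0.05 and -0.07, each smaller in size than that spread. This measure could thus not show the loss of a difference. Between high iron and control the median changed sign with median-of-ratios scaling (-0.07) and without high-iron replicate 8 (-0.09). Between high iron and low iron it changed sign with quantile normalization (0.01), and in the absence of low-iron replicate 7 (0.003) or high-iron replicate 2 (0.01). Without low-iron replicate 7, 18 of 35 were above 0 between low iron and control. Besides PLIN2 and PPARG, some genes of the list passed an unadjusted limma p under 0.05, given with the number passing of all 12584 tested genes. Between low iron and control, ECI1 was higher with quality weights (713). ECI1 and ECI2 were higher without low-iron replicate 3 (482), and ACSL3 was lower without control replicate 4 (379). Between high iron and control, HADHA was higher without control replicate 6 (631). Between high iron and low iron, ECI1 and ECI2 were lower without low-iron replicate 3 (1136). CPT1A was lower there without high-iron replicate 2 (932). The cause was not tested. The table gives no counts per gene, so the number of reads behind low values such as those of PPARG, CD36 and FABP5 is not known from it.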

Other observations

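The cell types other than hepatocytes were read from marker lists, given here by the range of their summed FPKM in low-iron, control and high-iron pigs. Endothelial markers summed to 314 to 378, 282 to 328 and 311 to 452 FPKM, with 5 of 10 higher between high iron and control at an unadjusted p under 0.05 in limma. Over all tested genes 5.59% passed this threshold in that comparison, in either direction. Stellate cell and fibroblast markers summed to 140 to 333, 134 to 219 and 225 to 333 FPKM, with 3 of 10 higher in that comparison. T and NK cell markers summed to 17.3 to 30.9, 19.9 to 27.9 and 27.6 to 52.1 FPKM, with 2 of 8 higher. B and plasma cell markers summed to 9.77 to 17.3, 14.3 to 28.3 and 17.3 to 32.6 FPKM, and bile duct markers to 67.7 to 172, 72.1 to 129 and 73.9 to 113 FPKM, with 0 of 6 tested genes of either list higher in that comparison. Of the 11 hepatocyte genes, 1 was lower in that comparison, CPS1. Between high iron and low iron 7.15% of all tested genes passed the same threshold. There 2 of 10 Kupffer cell and macrophage, 2 of 10 endothelial, 2 of 10 stellate cell and 2 of 8 T and NK cell markers were higher. For B and plasma cell markers and for bile duct markers it was 1 of 6 each. Of the 11 hepatocyte genes, 1 was lower there. Between low iron and control, 2 of 10 endothelial, 1 of 10 stellate cell and 1 of 8 T and NK cell markers were higher at this threshold. For hepatocyte, Kupffer cell and macrophage, B and plasma cell and bile duct markers it was 0. Over all tested genes 3.68% passed in that comparison, in either direction.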
